A study of Mus musculus with 28 samples.

Results

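Of 24116 genes counted in mouse embryonic stem cells, 226 stood lower without the zinc finger factor Zfp281 and also lower without the histone methyltransferase Ehmt1, at 32 h after the cells were released from the naive state. The genes were chosen by their counts at 32 h. A gene was taken when the mean log2(CPM + 1) of the knockout (KO) libraries lay at least 1 below that of the wild type (WT) libraries, for Zfp281 and again for Ehmt1, with both KO libraries below both WT libraries each time. CPM is the field's unit of counts scaled to library size. The Zfp281 side of this rule was met by 817 genes and the Ehmt1 side by 518. The 233 genes that met both sides were 28.5% of the Zfp281 list and 45% of the Ehmt1 list. Of 11 genes left out by name, 7 met both sides, which leaves the 226. Of these, 222 are protein-coding and 4 are long noncoding RNAs, and 11 (4.87%) lie on the X chromosome, against 4.26% of all genes.

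The study sequenced RNA from the female line RGd2, which carries a reporter for the naive gene Rex1 (Rex1:GFPd2) in every group. Cells grew in serum-free N2B27 medium with 2i, a pair of inhibitors (CHIR99021 against Gsk3, PD0325901 against Mek) under which they stay naive. They were taken in 2i (ESC in the plots), or 16 h or 32 h after 2i was withdrawn. Zfp281 KO cells and the WT lines named WT and Zfp281_WT were sequenced after ribosomal RNA depletion at all 3 stages (12 libraries). Cells without Ehmt1, without Zic2 or without both (the double KO) and the WT lines named Ehmt1_WT and Zic2_WT were sequenced from polyA RNA in 2i and at 32 h (16 libraries). Each of the 14 groups holds 2 libraries, 1 from each of 2 lines, so the libraries in 2i and at 16 h come from the same lines as those at 32 h. The labels do not say how the alleles were made or how the WT lines differ, and 2 lines are few: the p-values measure only the spread between these libraries.

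Zfp281 is a transcription factor that binds G-rich DNA and is needed for a timely exit from the naive state. Ehmt1 (GLP) forms with Ehmt2 (G9a) the enzyme that lays down mono- and dimethylation of H3K9, a mark tied to silent chromatin. During the exit, naive genes such as Esrrb and Klf4 fall and formative genes such as Fgf5 and Otx2 rise, which readies the cells for germ layer fates. Zic2 is a further zinc finger factor, active in cells past the naive state and in the early nervous system.

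The libraries held 18086421 to 36365192 counts. Ehmt1 RNA was 17.6 and 24.9 CPM in Ehmt1 KO cells in 2i, against 80.3 and 93.4 in WT, and stayed at 25.4 to 30.5 in the double KO at both stages. Zfp281 RNA (278 and 280 CPM in the KO in 2i, 238 and 302 in WT) and Zic2 RNA (107 and 149 against 111 and 105) were not lower in their own KOs, so gene-level counts check only the Ehmt1 label. The WT line Zfp281_WT stood apart in 2i and at 32 h, where 89.2% and 87.0% of olfactory receptor genes had a count in its libraries. Its 16 h library had 8.68%, and the remaining 6 ribo-depleted libraries in 2i and at 32 h had 11.1% to 24.7%. The 18 naive marker genes summed to 762 and 1220 CPM in ribo-depleted WT at 32 h and to 2170 and 2330 in Zfp281 KO. In polyA libraries at 32 h they summed to 685 and 747 in WT, 747 and 843 in Zic2 KO, 1220 and 1330 in Ehmt1 KO, and 1860 and 1910 in the double KO, and no naive marker was at 0 in any library. From group to group at 32 h, these sums moved in the direction opposite to the 226 genes, and their part in the results was not tested. Fewer cells that have left the naive state and less RNA per cell cannot be told apart in bulk RNA.

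The promoters of 4 of the genes are shown because Sox11, Lamb1 and Soat1 are among the most abundant of the set in WT cells at 32 h and Spred3 had the largest difference on the Zfp281 side. Each was also picked for holding the G-rich string GGGGNGGGG, in capitals, read on both strands, so that holding it is no finding. The windows are RefSeq promoters on GRCm38.p6, 250 bases before to 50 bases after a transcription start. Sox11 is at chr12:27342669-27342968, minus strand, Lamb1 at chr12:31265043-31265342, plus strand, Soat1 at chr1:156474279-156474578, minus strand, and Spred3 at chr7:29168598-29168897, minus strand.
Sox11: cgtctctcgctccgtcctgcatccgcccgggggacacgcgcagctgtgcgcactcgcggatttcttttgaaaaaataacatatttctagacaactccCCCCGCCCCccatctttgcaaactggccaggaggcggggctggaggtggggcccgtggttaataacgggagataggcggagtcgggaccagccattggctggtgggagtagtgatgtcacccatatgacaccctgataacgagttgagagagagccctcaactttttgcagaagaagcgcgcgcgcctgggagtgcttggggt
Lamb1: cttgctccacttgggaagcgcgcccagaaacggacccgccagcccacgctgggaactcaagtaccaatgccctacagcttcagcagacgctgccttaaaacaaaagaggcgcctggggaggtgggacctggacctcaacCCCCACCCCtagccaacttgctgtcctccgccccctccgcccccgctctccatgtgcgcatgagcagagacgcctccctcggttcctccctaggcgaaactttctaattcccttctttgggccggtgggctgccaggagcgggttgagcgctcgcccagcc
Soat1: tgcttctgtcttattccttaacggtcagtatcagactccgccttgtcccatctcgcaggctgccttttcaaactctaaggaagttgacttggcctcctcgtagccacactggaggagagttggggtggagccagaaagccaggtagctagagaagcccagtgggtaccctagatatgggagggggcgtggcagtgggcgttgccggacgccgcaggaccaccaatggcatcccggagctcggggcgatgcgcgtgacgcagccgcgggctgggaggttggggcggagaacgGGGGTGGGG
Spred3: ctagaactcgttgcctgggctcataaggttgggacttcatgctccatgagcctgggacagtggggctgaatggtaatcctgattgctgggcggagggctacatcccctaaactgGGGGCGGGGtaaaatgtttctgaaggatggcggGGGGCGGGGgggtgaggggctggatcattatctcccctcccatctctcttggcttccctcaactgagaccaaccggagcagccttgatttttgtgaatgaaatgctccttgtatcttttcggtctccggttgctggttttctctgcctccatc
Counted from the start base as 0, the first base of the match lies at -153 in Sox11, -111 in Lamb1 and 41 in Soat1, and Spred3 has matches at -136 and -103. The string occurs in 22.4% of the 32851 promoter windows in the table. A window was found for 172 of the 226 genes (76.1%), under the 80% needed, so no share is given for the set. A match to these letters is a description, not a binding site.

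On the values that chose them, the genes had a median KO minus WT difference in log2(CPM + 1) at 32 h of -1.37 for Zfp281 and -1.34 for Ehmt1. The lowest values were -3.17 for Spred3 on the Zfp281 side and -2.82 for Hapln4 on the Ehmt1 side. Just inside the threshold lay Hspa1b (-1.002) and Iglon5 (-1.003) for Zfp281 and Mgst1 (-1.003) for Ehmt1. Just outside lay Fam131b (-0.999) and Mpped1 (-0.998) for Zfp281 and Alox12 (-0.997) for Ehmt1. These differences are a description, and no test was made on them.

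Levels were read within each kit. In ribo-depleted WT at 32 h the highest mean was that of Grb10, an imprinted adaptor of insulin and growth factor receptors (296 and 180 CPM), which overlapped Trio (239 and 220 CPM), and the lowest that of Faim2 (mean 1.3 CPM). In polyA WT at 32 h the lowest was again Faim2 (mean 1.49 CPM), while Trio (154 and 179 CPM) and Grb10 (157 and 169 CPM) overlapped at the top. Per kilobase of exon, the tight junction gene Cldn6 (mean 36.9 CPM per kb) and the alanine aminotransferase Gpt2 (36.4) were highest in ribo-depleted WT. In polyA WT the highest was Bst2, a membrane protein that tethers budding virus (99.7 CPM per kb), followed by the glutathione-degrading enzyme Chac1 (30.8). All 226 genes together took 2357 and 2470 CPM in ribo-depleted WT in 2i and 5764 and 5474 at 32 h. In polyA WT they took 2298 and 2468 CPM in 2i and 5677 and 5482 at 32 h. At 32 h they took 2027 and 2127 CPM in Zfp281 KO, 1803 and 2163 in Ehmt1 KO, 1635 and 1921 in the double KO, and 4648 and 4735 in Zic2 KO. The 16 h libraries, which the rule did not use, held 3095 and 3175 CPM in WT and 1510 and 1524 in Zfp281 KO. At 32 h the Zic2 KO libraries lay below both polyA WT libraries (5677 and 5482 CPM) and above those of Ehmt1 KO and the double KO. That Zfp281 KO and Ehmt1 KO lay below WT at 32 h follows from the rule. In 2i, Zfp281 KO (1565 and 1568 CPM), Ehmt1 KO (1071 and 1040) and the double KO (1258 and 1336) also lay below WT.

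**Figure D1:**
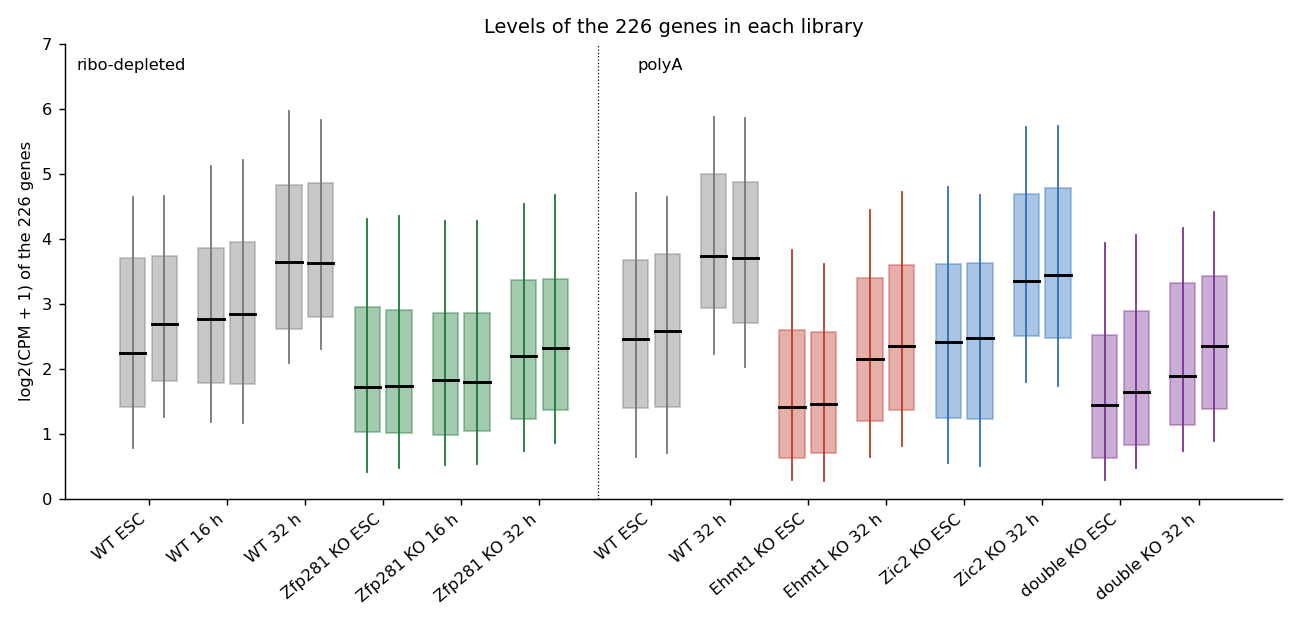
Level of the 226 genes in each of the 28 libraries, as log2(CPM + 1): the line is the median gene, the box the quartiles and the whiskers percentiles 10 and 90. At 32 h the medians of WT and Zic2 KO (3.36 to 3.74) lie above those of Zfp281 KO, Ehmt1 KO and the double KO (1.89 to 2.36). The 32 h libraries of WT, Zfp281 KO and Ehmt1 KO were used to choose the genes.

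The libraries of 4 comparisons lie outside the rule: Zfp281 KO against WT in 2i and at 16 h, Ehmt1 KO against WT in 2i, and the double KO against Zic2 KO at 32 h. The last sets cells without both Ehmt1 and Zic2 against cells without Zic2 alone. The labels do not say from which lines the double KO lines were made, so they may not be independent of the Ehmt1 KO lines. Except at 16 h, the estimate of the spread also drew on 32 h libraries that the rule used. In each, a gene was called when the edgeR quasi-likelihood test, adjusted over all genes tested, gave a p under 0.05, and fold changes are log2 with their standard error (SE).

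Many of the genes were already lower before exit. In 2i, 105 of the 226 were called lower in Zfp281 KO and 2 higher (Jakmip2 and Trio), where 5.3% of all tested genes were called lower and 8.5% higher. The median difference was -0.88 (quartiles -1.41 and -0.41), against -0.04 over all genes, and 209 of 226 lay below 0. In 177 genes both KO libraries lay below both WT libraries, which held for 23.6% of all genes. Naive markers summed to 3960 and 3220 CPM in WT and 4570 and 4690 in Zfp281 KO in 2i, with 4 of 18 called higher and none lower. Of the formative markers 9 of 25 were called lower and 5 higher, and the part of either list in these counts was not tested. With only the 2i libraries in the fit, 80 of 225 tested members were called lower, against 915 of all 15563 genes. The count of 105 fell to 58 without Zfp281 KO line 1 and to 56 without line 2, and was 132 without the WT line Zfp281_WT.

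At 16 h, 180 of 224 tested genes were called lower in Zfp281 KO and none higher, against 13.3% and 15.3% of all tested genes. The median was -1.11 (quartiles -1.6 and -0.78), against -0.01 over all genes, and the KO libraries lay below the WT libraries in 217 genes (34.7% of all genes). Only 2 of the 224 had a value above 0. Naive markers summed to 2010 and 2310 CPM in WT and 3300 and 3330 in Zfp281 KO at 16 h, with 12 of 18 called higher and 1 lower. Formative markers summed to 3200 and 3210 CPM in WT and 1930 and 2000 in Zfp281 KO, with 18 of 25 called lower and 3 higher, and the part of either in these counts was not tested. The count was 121 without Zfp281 KO line 1 and 138 without line 2. 

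In 2i, 134 genes were called lower in Ehmt1 KO and 3 higher (Gabra3, Hdgfl3 and Trio), where 12.1% and 14.8% of all genes were called. The median was -1.37 (quartiles -1.92 and -0.79), against -0.01 over all genes, and the groups did not overlap, KO below WT, in 195 genes (30.7% of all). Of the naive markers 7 of 18 were called higher and 2 lower there, and of the formative markers 4 of 25 were called in each direction.

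At 32 h, 176 genes were called lower in the double KO than in Zic2 KO and none higher, against 15.9% and 20.0% of all genes. The median was -1.5 (quartiles -1.94 and -0.99), against 0.0 over all genes, and the double KO lay below Zic2 KO in both libraries in 211 genes (36.6% of all). Of the naive markers 11 of 18 were called higher and 1 lower, with sums of 1860 and 1910 CPM against 747 and 843. Of the formative markers 8 of 25 were called lower and 1 higher, with sums of 3290 and 3770 CPM against 4310 and 4800, and neither list's part in the result was tested.

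**Figure D2:**
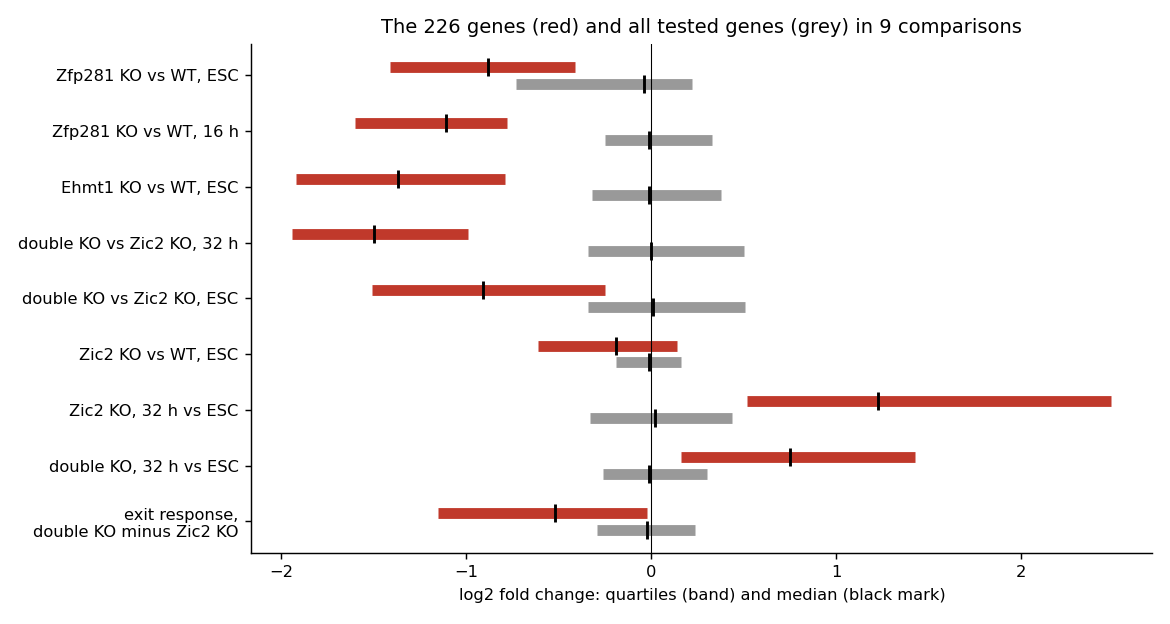
Log2 fold change of the 226 genes (red) and of all tested genes (grey) in 9 comparisons, as quartiles (band) and median (black mark). The red medians lie between -0.88 and -1.5 in the 4 comparisons of KO against control named above, where the grey medians lie within 0.04 of 0.

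Of the 226 genes, 144 (63.7%) were called lower both in Zfp281 KO at 16 h and in the double KO against Zic2 KO at 32 h, which share no library. Of all genes tested in both, 5.74% were. Of the 144, 95 were also called lower in Ehmt1 KO in 2i (2.9% of all genes), and 60 in all 4 comparisons (1.43% of all genes). The 60 included the chemokine Cxcl12, the sterol acyltransferase Soat1, the laminin chain Lamb1, the kinesin Kif21b and the insulin-responsive glucose transporter Slc2a4. The double KO call of Lamb1 and the Ehmt1 KO call of Soat1 in 2i were lost in some alternative fits, given below. A further 10 genes were called in none of the 4: Bhlhe41, Cpne7, Grb10, Hdgfl3, Mfsd2a, Nkd2, Sorbs2, Tmem200a, Vat1l and Vwa2.

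**Figure D3:**
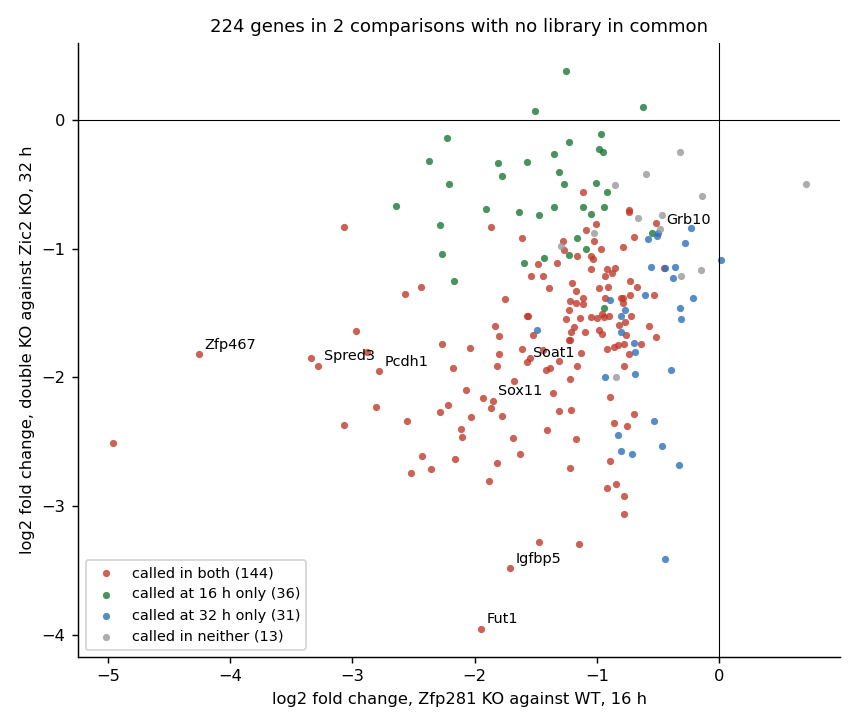
Log2 fold change of Zfp281 KO against WT at 16 h (x axis) and of the double KO against Zic2 KO at 32 h (y axis) for the 224 genes tested in both, 1 point a gene, coloured by which comparison called it. Called in both were 144 genes, at 16 h only 36, at 32 h only 31 and in neither 13.

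The set was then read by function. Roles were given to 146 genes from general knowledge, after their values had been seen, and 80 genes were given none, so the counts by role are descriptions. Of the whole set, 79.6% were called lower in Zfp281 KO at 16 h and 46.5% in 2i. In Ehmt1 KO in 2i the share was 59.3%, and in the double KO against Zic2 KO at 32 h 77.9%. A role count near these shares is that of the set and tells nothing about the role. Genes were sorted into a role from among those already chosen as low, so beside each role stands the tally of the wider list that holds its named members, where there is one. Transcription and chromatin factors were the role with 28 of 30 members called lower in Zfp281 KO at 16 h, 21 in 2i, 18 in Ehmt1 KO in 2i and 25 in the double KO at 32 h. Median differences in that order were -1.32, -1.1, -1.51 and -1.8.

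Sox11 (chr12:27334268-27342718), a SoxC factor of neural progenitors, stood at 38.4 and 36.2 CPM in WT in 2i and went to 103 and 103 at 16 h and 142 and 132 at 32 h. In Zfp281 KO it held 19.5 and 21.1, 27.9 and 29.1, and 48.5 and 52.0 CPM at the same stages. The KO libraries lay below WT at every stage, by -0.88 ± 0.09 in 2i (adjusted p = 0.00037) and -1.85 ± 0.09 at 16 h (adjusted p = 1.2e-05). In polyA libraries at 32 h, Sox11 was at 85.4 and 82.6 CPM in WT, 71.0 and 72.4 in Zic2 KO, 24.7 and 44.2 in Ehmt1 KO, and 7.92 and 23.8 in the double KO. The double KO differed from Zic2 KO by -2.18 ± 0.53 (adjusted p = 0.0067), but without double KO line 1 the difference was -1.59 (adjusted p = 0.054). In 2i its polyA groups overlapped (14.9 and 20.8 CPM in WT, 11.3 and 15.6 in Ehmt1 KO) and it was not called. Of the neural list that holds Sox11, 7 of 18 tested genes were called lower and 2 higher in Zfp281 KO at 16 h, 4 of 20 lower and 3 higher in Ehmt1 KO in 2i, and 10 of 20 lower and 2 higher in the double KO at 32 h. In Zfp281 KO in 2i, 1 of its 23 tested genes was called lower and 3 higher.

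Its relative Sox4 had 14.1 and 15.1 CPM in WT at 16 h and 4.38 and 4.1 in Zfp281 KO (-1.78 ± 0.15, adjusted p = 0.0001). At 32 h it had 45.4 and 62.2 CPM in Zic2 KO and 9.88 and 12 in the double KO (-2.3 ± 0.42, adjusted p = 0.0013). Of the formative list that holds Sox4, 18 of 25 genes were called lower and 3 higher in Zfp281 KO at 16 h, and 9 lower and 5 higher in 2i. In Ehmt1 KO in 2i 4 of the 25 were called each way, and in the double KO at 32 h 8 lower and 1 higher. Zfp467, a zinc finger factor, fell furthest in Zfp281 KO among the factors named here: 10.6 and 7.35 CPM in WT at 16 h stood against 0.518 and 0.41 in the KO (-4.26 ± 0.29, adjusted p = 5.3e-05). Zfp608, another zinc finger protein, was near 0 in polyA libraries in 2i (0.158 to 0.551 CPM in all 8 libraries) and reached 35.6 and 31.3 CPM in WT at 32 h. It was at 24.3 and 18.8 CPM in Zic2 KO at 32 h and 3.37 and 5.91 in the double KO (-2.21 ± 0.3, adjusted p = 0.00017).

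Atxn1l, a chromatin-bound repressor that works with Capicua, differed little by stage: WT libraries held 59.1 to 88.4 CPM in all 10 cases. Zfp281 KO held 26.7 to 39.2 CPM at the 3 stages and Ehmt1 KO 6.65 to 19.5 at both. The differences were -1.12 ± 0.13 in Zfp281 KO in 2i (adjusted p = 0.00074) and -2.41 ± 0.44 in Ehmt1 KO in 2i (adjusted p = 0.0014). In the double KO at 32 h it was at 15.9 and 12.3 CPM, against 83.1 and 74.3 in Zic2 KO.

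Signalling genes showed 14 of 21 called lower in Zfp281 KO at 16 h, 8 in 2i, 11 in Ehmt1 KO in 2i and 17 in the double KO at 32 h (medians -0.92, -0.66, -0.96 and -1.31). Spred3, a brake on Ras and Erk signalling (chr7:29157783-29170070), went from 4.54 and 6.78 CPM in WT in 2i to 23.6 and 22.2 at 16 h and 31.5 and 34.7 at 32 h. In Zfp281 KO it held 3.02 and 2.3, then 2.07 and 2.63, then 3.14 and 2.99 CPM. The values at 32 h are those that chose it. At 16 h, outside the rule, its KO libraries overlapped those in 2i. The difference at 16 h was -3.28 ± 0.16 (adjusted p = 1.2e-05). In polyA libraries at 32 h it was at 86.1 and 83.5 CPM in WT, 72.4 and 80.1 in Zic2 KO, 22.8 and 50.2 in Ehmt1 KO, and 21.3 and 19.3 in the double KO, whose difference from Zic2 KO was -1.91 ± 0.25 (adjusted p = 0.00014). Spred3 in 2i had 4.22 to 7.69 CPM in the 8 polyA libraries and was not called in Ehmt1 KO. The list of Fgf and Erk targets that holds Spred3 was split: of 19 genes, 3 were called lower and 3 higher in Zfp281 KO at 16 h (median 0.01), and 5 lower and 4 higher in the double KO at 32 h. In 2i, 1 of the 19 was called lower and 6 higher in Zfp281 KO, and 2 each way in Ehmt1 KO.

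Cxcl12, the ligand of Cxcr4, had 10.4 and 9.83 CPM in WT at 16 h and 1.66 and 2.08 in Zfp281 KO (-2.43 ± 0.19, adjusted p = 8.7e-05). At 32 h it had 45.9 and 42.9 CPM in Zic2 KO, 23.5 and 30.6 in Ehmt1 KO and 6.94 and 7.56 in the double KO. The double KO differed from Zic2 KO by -2.61 ± 0.19 (adjusted p = 1.9e-06). Igfbp5, a binding protein of insulin-like growth factors, was higher in Zic2 KO at 32 h (71.0 and 50.4 CPM) than in WT (16.0 and 17.9), a difference that shares libraries with the rule and was not tested. Against Zic2 KO the double KO had 6.88 and 3.98 CPM (-3.48 ± 0.35, adjusted p = 1.8e-05), below every WT library of that stage.

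Neuronal and synaptic genes showed 20 of 29 tested called lower in Zfp281 KO at 16 h, 12 of 30 in 2i, 18 in Ehmt1 KO in 2i and 25 in the double KO at 32 h (medians -1.23, -1.02, -1.42 and -1.68). The list of neuronal cytoskeleton and synapse genes, which holds Celsr3, Dpysl5, Gap43 and Syt11 of the set, was split instead. Of its 31 tested genes, 9 were called lower and 9 higher in Zfp281 KO at 16 h (median 0.01), 9 and 9 in Ehmt1 KO in 2i (median 0.01), and 8 and 7 in the double KO at 32 h (median -0.22), and 7 of 33 were called each way in Zfp281 KO in 2i. Kif21b, a kinesin of neurons and immune cells (chr1:136131390-136178001), moved from 12.3 and 12.6 CPM in WT in 2i to 36.9 and 36 at 32 h. Zfp281 KO held 4.04 and 4.51 CPM in 2i, 3.83 and 4.48 at 16 h and 5.04 and 5.57 at 32 h. The differences were -1.54 ± 0.11 in 2i (adjusted p = 7.4e-05) and -1.93 ± 0.15 at 16 h (adjusted p = 9e-05). In Ehmt1 KO in 2i it had 4.04 and 3.17 CPM against 10.9 and 14.7 in WT (-1.82 ± 0.25, adjusted p = 0.0002), and in the double KO at 32 h 5.29 and 7.77 against 28.1 and 30.1 in Zic2 KO (-2.16 ± 0.24, adjusted p = 3.6e-05). No KO library that lacks Zfp281 or Ehmt1 reached the lowest WT library.

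Celsr3, an atypical cadherin that guides axons, was low without Zfp281 and without Ehmt1 at each stage: 3.35 and 2.7 CPM in Zfp281 KO at 16 h against 10.4 and 10.7 in WT, and 7.72 and 7.19 in the double KO at 32 h against 24.1 and 23.6 in Zic2 KO. Dpysl5, a collapsin response mediator of growth cones, had 12.1 and 10.5 CPM in the double KO at 32 h against 36.9 and 36.1 in Zic2 KO (-1.69 ± 0.16, adjusted p = 1.2e-05). Gap43, a growth cone protein, had 0.734 and 2.74 CPM in Ehmt1 KO in 2i against 19.3 and 18 in WT (-3.45 ± 0.74, adjusted p = 0.0042). At 32 h its Ehmt1 KO libraries were far apart, at 7.4 and 19.5 CPM.

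Of 10 germ cell and meiosis genes, 9 were called lower in Zfp281 KO at 16 h, 7 in 2i, 6 in Ehmt1 KO in 2i and 7 in the double KO at 32 h. The wider lists did not all go this way. Of piRNA and germ cell genes (Dmrt1, Tdrd1 and Tdrkh are on it), 12 of 25 were called lower and 6 higher in Zfp281 KO at 16 h, 8 of 27 lower and 5 higher in 2i, 2 of 26 lower and 10 higher in Ehmt1 KO in 2i, and 7 of 26 each way in the double KO at 32 h. Of meiosis genes (Rec8 is on it), 4 of 20 were lower and 6 higher in Zfp281 KO at 16 h, 3 of 23 lower and 5 higher in 2i, 3 of 22 lower and 4 higher in Ehmt1 KO in 2i, and 8 of 22 lower and 3 higher in the double KO at 32 h. Meioc, which keeps germ cells in meiotic prophase (chr11:102665351-102682240), had 21.8 and 22.2 CPM in WT in 2i, 52.9 and 58.0 at 16 h and 120 and 114 at 32 h. In Zfp281 KO it stood at 18.7 and 19, 28.9 and 30.1, and 41.4 and 39.9 CPM, lower at 16 h by -0.91 ± 0.1 (adjusted p = 0.00044). In Ehmt1 KO in 2i it had 2.61 and 2.06 CPM against 5.94 and 8.92 in WT (-1.66 ± 0.25, adjusted p = 0.00036). Iho1 and Ybx2, of meiotic recombination and of stored germ cell RNA, were called lower in all 4 comparisons. Dmrt1, a factor of the germ line and testis, had 2.93 and 2.33 CPM in Zfp281 KO in 2i against 14.7 and 20.7 in WT (-2.74 ± 0.2, adjusted p = 9.2e-05). In Zic2 KO in 2i it had 45.8 and 52.8 CPM against 22.9 and 16.4 in polyA WT, which did not overlap but passed no test (adjusted p = 0.28). Rec8, a meiotic cohesin, stood higher in 2i than at 32 h in Zic2 KO (47.4 and 43.8 against 18 and 17.7 CPM), and this call (-1.36 ± 0.37, adjusted p = 0.015) was lost without the 2i library of line 1 (adjusted p = 0.061) or the 32 h library of line 1 (adjusted p = 0.08) or line 2 (adjusted p = 0.085).

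Matrix and epithelial genes had 16 of 17 members called lower in Zfp281 KO at 16 h, 7 in 2i, 9 in Ehmt1 KO in 2i and 11 in the double KO at 32 h. The list of cadherins and adhesion genes, which holds Cldn6, Cldn7 and Pcdh1, was split: 8 of 26 tested were called lower and 7 higher in Zfp281 KO at 16 h (median 0.05), 3 of 28 each way in 2i, 6 of 26 lower and 2 higher in Ehmt1 KO in 2i, and 4 of 26 each way in the double KO at 32 h. Lamb1, a laminin chain of basement membranes (chr12:31265146-31329644), had 108 and 101 CPM in WT in 2i and 41.6 and 42.1 in Zfp281 KO (-1.32 ± 0.08, adjusted p = 2.9e-05). At 16 h it had 94.6 and 93.3 against 46.8 and 44.2 (-1.05 ± 0.09, adjusted p = 0.00012). In Ehmt1 KO in 2i it had 12.8 and 23.1 against 65.3 and 77.0 CPM (-1.99 ± 0.39, adjusted p = 0.0022). In the double KO at 32 h its values were 27.9 and 62.1 CPM against 96.9 and 90.7 in Zic2 KO, and the call (-1.06 ± 0.37, adjusted p = 0.038) was lost without double KO line 1 (-0.59, adjusted p = 0.26), with no filter (adjusted p = 0.11), with only the groups compared (adjusted p = 0.061), or without Zic2 KO line 1 (-1.02, adjusted p = 0.13) or line 2 (-1.11, adjusted p = 0.1). The 2 double KO lines thus lay further apart than double KO line 2 lay from Zic2 KO.

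Cldn6, a tight junction claudin of early embryos, had 19.4 and 28.3 CPM in WT at 16 h and 5.8 and 4.41 in Zfp281 KO (-2.23 ± 0.22, adjusted p = 0.00056). In Zic2 KO at 32 h it was itself low, at 11.3 and 8.64 CPM against 36.3 and 30.5 in WT, and the double KO (5.87 and 12.3) overlapped Zic2 KO. Pcdh1, a protocadherin of epithelia, had 0.513 to 5.86 CPM in the 12 libraries in 2i. It had 18.5 and 19.2 CPM in WT at 16 h against 2.24 and 3.25 in Zfp281 KO (-2.78 ± 0.18, adjusted p = 4.6e-05). At 32 h it had 82.5 and 88.7 CPM in Zic2 KO and 20.3 and 23.9 in the double KO (-1.95 ± 0.18, adjusted p = 9.1e-06).

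Of 10 actin and muscle genes, 4 were called lower in Zfp281 KO in each of 2i and 16 h, 5 in Ehmt1 KO in 2i and 8 in the double KO at 32 h. No wider list of actin and muscle genes was counted. Flnc, a muscle filamin that crosslinks actin, had 26.1 and 20.2 CPM in WT at 16 h and 3.73 and 4.07 in Zfp281 KO (-2.57 ± 0.17, adjusted p = 4.5e-05). Its Zfp281 KO libraries stayed at 3.73 to 6.72 CPM through all 3 stages while WT reached 58.7 and 54.7 at 32 h. The values at 32 h are those that chose the gene. 

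The 5 genes tied to the integrated stress response (Chac1, Gpt2, Stc2, Trib3, Vegfa) were called lower in Ehmt1 KO in 2i, all 5 of them (median -1.73), and none was in Zfp281 KO in 2i (median 0.13). These comparisons come from different kits, and the difference between them was not tested. The 5 were grouped after their values were seen, from genes already chosen as low, and no wider list of such genes was counted. At 16 h, 4 of the 5 were called lower in Zfp281 KO (median -0.74). Trib3, a pseudokinase induced by Atf4, had 23.6 and 22.0 CPM in WT and 19.2 and 21.2 in Zfp281 KO in 2i, and 32.3 and 37.7 against 15.8 and 18 at 16 h (-1.05 ± 0.12, adjusted p = 0.00061). In Ehmt1 KO in 2i it had 7.11 and 12.1 CPM against 40.1 and 39.4 in WT (-2.05 ± 0.29, adjusted p = 0.00025). Gpt2 (chr8:85492576-85528902), which makes alanine from pyruvate, had 42.4 and 46.5 CPM in Ehmt1 KO in 2i against 109 and 131 in WT (-1.43 ± 0.11, adjusted p = 3.1e-06), and 88.2 and 94.3 in Zfp281 KO at 16 h against 150 and 155 (-0.74 ± 0.08, adjusted p = 0.00047). For Chac1, Stc2 and Vegfa the Ehmt1 call in 2i was lost without Ehmt1 KO line 1 (adjusted p = 0.077, 0.15 and 0.067). Chac1 also lost it without Ehmt1_WT (adjusted p = 0.051) or with no filter on low counts (adjusted p = 0.06), and Stc2 without Zic2_WT (adjusted p = 0.15) or Ehmt1 KO line 2 (adjusted p = 0.058).

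Of the 13 members given a metabolic role, 10 were called lower in Zfp281 KO in 2i and all 12 tested at 16 h (medians -1.13 and -1.42). In Ehmt1 KO in 2i 10 were called lower, and 12 in the double KO at 32 h (medians -1.78 and -1.76). No wider list of metabolic genes was counted, so these counts describe only genes already chosen as low. Soat1 (chr1:156428108-156474328), which esterifies cholesterol for storage, had 48.2 and 54.4 CPM in WT in 2i, 55.7 and 57.3 at 16 h and 150 and 149 at 32 h. Zfp281 KO had 24.6 and 24.1, 19 and 18.9, and 30.5 and 37.9 CPM, lower by -1.07 ± 0.11 in 2i (adjusted p = 0.00042) and -1.57 ± 0.1 at 16 h (adjusted p = 4.1e-05). At 32 h the double KO had 20.3 and 28 CPM, Zic2 KO 95.7 and 82.6 and WT 151 and 130, and the double KO differed from Zic2 KO by -1.88 ± 0.2 (adjusted p = 3e-05). In Ehmt1 KO in 2i it had 26.0 and 32.3 CPM against 55.9 and 49.7 (-0.86 ± 0.2, adjusted p = 0.0071), a call lost without Ehmt1_WT (-0.77, adjusted p = 0.054) or Ehmt1 KO line 1 (-0.7, adjusted p = 0.073).

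Slc2a4 (GLUT4), the glucose transporter of muscle and fat, was a low-level gene in every group. It had 4.23 and 5.16 CPM in WT in 2i and 0.413 and 0.633 in Ehmt1 KO (-3.17 ± 0.37, adjusted p = 5.2e-05), and 5.39 and 5.87 in WT at 16 h and 1.24 and 1.26 in Zfp281 KO (-2.16 ± 0.21, adjusted p = 0.00026). Cpt1b, which passes fatty acids into muscle mitochondria, had 7.32 and 6.41 CPM in WT in 2i and 0.413 and 0.58 in Ehmt1 KO (-3.79 ± 0.63, adjusted p = 0.00076). The enolases Eno2 and Eno3 were called lower in all 4 comparisons.

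Of 6 immune genes, 5 were called lower in Zfp281 KO at 16 h, 2 in 2i, 5 in Ehmt1 KO in 2i and 3 in the double KO at 32 h. The 4 noncoding RNAs were all called lower in Zfp281 KO at 16 h and in the double KO at 32 h, 1 of them in Zfp281 KO in 2i and 2 in Ehmt1 KO in 2i. No wider list of immune genes or noncoding RNAs was counted, so these counts describe only genes already chosen as low. Firre, an X-linked RNA that shapes nuclear architecture (chrX:50563120-50635321), stood at 96.6 and 107 CPM in polyA WT in 2i and at 57.8 and 40.3 at 32 h. In Ehmt1 KO it had 15.6 and 20.7 in 2i (-2.49 ± 0.2, adjusted p = 3.4e-06) and 10.5 and 7.81 at 32 h. In Zfp281 KO in 2i it was at 69.2 and 67.5 CPM against 70.9 and 83.7 in WT and was not called. At 16 h it had 28 and 33.1 against 49.0 and 59.8 (-0.83 ± 0.13, adjusted p = 0.0023). The X chromosome as a whole took 3.33% to 3.98% of counts in the 6 ribo-depleted WT libraries and 4.4% to 4.8% in the 6 of Zfp281 KO, whose part in the value for Firre was not tested. Miat, a nuclear RNA of neural cells, had 8.0 and 6.44 CPM in WT at 16 h and 1.83 and 1.71 in Zfp281 KO (-2.03 ± 0.21, adjusted p = 0.00031).

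**Figure D4:**
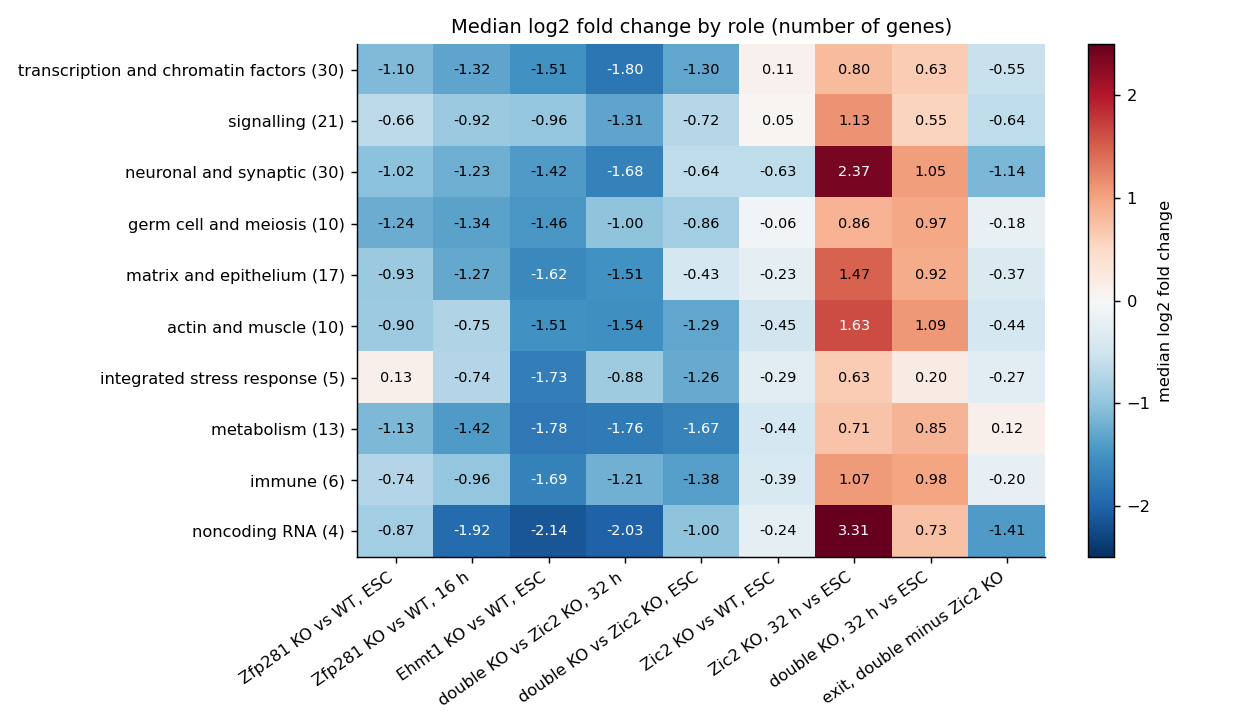
Median log2 fold change of each of 10 roles (vertical) in 9 comparisons (horizontal), with the value written in each cell. The integrated stress response row is at 0.13 in Zfp281 KO in 2i and -1.73 in Ehmt1 KO in 2i, and the neuronal row is at 2.37 in the exit of Zic2 KO and 1.05 in that of the double KO. Roles were given after the values were seen, to genes already chosen as low at 32 h, so the rows are descriptions.

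The Zic2 KO libraries lay near WT in 2i, with 2386 and 2355 CPM summed over the set against 2298 and 2468 in polyA WT. There, edgeR called none of the 226 genes lower in Zic2 KO and 1 higher, where 0.115% and 0.16% of all genes were called. At an unadjusted p under 0.05, 34 were lower, and DESeq2 called 1 lower. The median was -0.19 (quartiles -0.61 and 0.14), and Zic2 KO lay below WT in both libraries in 99 genes (22.3% of all). The gene called higher was Scn2b, a sodium channel subunit, at 13.2 and 17.4 CPM against 3.8 and 5.11 in WT (1.78 ± 0.25, adjusted p = 0.015). That call was lost without Ehmt1_WT (adjusted p = 0.15), Zic2 KO line 1 (adjusted p = 0.08) or line 2 (adjusted p = 0.2). At 32 h the median of Zic2 KO minus WT was -0.3, with 174 of 226 genes below 0, and that of the double KO minus WT was -1.79. Both use WT libraries that the rule chose as high and so stand without a test.

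With Ehmt1 also gone, 106 genes were called lower in 2i in the double KO than in Zic2 KO and 8 higher, against 15.2% and 19% of all genes. The double KO lay below Zic2 KO in both libraries in 154 genes (34.0% of all). With only the groups compared in the fit, 78 of 205 tested members were called lower, against 1353 of all 14385 genes. The 8 called higher were 4833422M21Rik, Fam184a, Gabra3, Hdgfl3, Ncan, Ptchd1, Trio and Vat1l. Of the 13 metabolic genes, 12 were lower there (median -1.67). Gpt2 had 69.9 and 62.6 CPM against 153 and 164 (-1.26 ± 0.11, adjusted p = 8.2e-06), Firre 17.0 and 20.5 against 95.9 and 80.5 (-2.23 ± 0.2, adjusted p = 8.2e-06), and Scn2b 2.61 and 2.29 against 13.2 and 17.4 (-2.64 ± 0.26, adjusted p = 1.4e-05). None of these values overlapped between the groups.

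Most of the genes stood higher at 32 h than in 2i. In WT their median change from 2i to 32 h was 1.26 in ribo-depleted and 1.43 in polyA libraries. In the KOs used by the rule it was 0.49 (Zfp281) and 0.99 (Ehmt1), and these 4 values share libraries with the rule and are descriptions. In Zic2 KO, outside the rule, 139 genes were called higher at 32 h than in 2i and 11 lower, against 15.7% and 15.2% of all genes (median 1.23). In the double KO 72 were called higher and 7 lower, against 7.17% and 7.19% (median 0.75). Both 32 h libraries lay above both 2i libraries in 197 genes in Zic2 KO (39.5% of all) and in 121 in the double KO (25.8% of all). The count of 72 was 37 without the 2i library of double KO line 1, 40 without the 32 h library of line 2, 112 with the line as a block, and 14 with only the double KO libraries in the fit. Those 14 were of 219 tested members, against 148 of all 15006 genes. With only the Zic2 KO libraries in the fit, 181 members were called higher, against 3952 of all 14300 genes. A count of calls also depends on the spread between the lines of a group. Of the 30 genes given a neuronal role, 28 were called higher in Zic2 KO (median 2.37) and 15 in the double KO (median 1.05). The list of neuronal cytoskeleton and synapse genes moved less. Of its 31 tested genes, 14 were called higher and 5 lower in Zic2 KO (median 0.68). Of the same genes, 7 were called higher and 5 lower in the double KO (median 0.37).

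Several genes rose in both exits, and the 3 given here had lower levels in 2i in the double KO than in Zic2 KO. Pcdh1 rose by 4.02 ± 0.2 in Zic2 KO, from 5.86 and 4.7 CPM (adjusted p = 8.7e-08), and by 4.22 ± 0.23 in the double KO, from 0.963 and 1.41 (adjusted p = 8.4e-07). Cxcl12 rose by 3.55 ± 0.21 from 3.77 and 3.81 CPM in Zic2 KO (adjusted p = 2.6e-07) and by 3.86 ± 0.27 from 0.55 and 0.438 in the double KO (adjusted p = 3e-06). Spred3 rose by 3.31 ± 0.27 (adjusted p = 3.3e-06) and 2.12 ± 0.28 (adjusted p = 0.00032) from 7.69 and 7.68 CPM and from 4.49 and 4.82.

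The 2 exits were compared in 1 model, with libraries also used in the comparisons above. 13 genes had a lower exit response in the double KO than in Zic2 KO and 1 a higher one, against 1.17% and 1.86% of all genes, with a median difference of -0.52 (quartiles -1.15 and -0.02). The 13 were 4833422M21Rik, Arl4c, Dchs1, Gabra3, Gulp1, Hdgfl3, Ncan, Nsmf, Pld4, Ptpn3, Trio, Ttc21b and Tubb4a, and the 1 was Cpeb1. The count of 13 was 32 with DESeq2 and 55 with the line as a block. Leaving out a Zic2 KO library took it to 5 (2i, line 1), 3 (2i, line 2), 3 (32 h, line 1) or 4 (32 h, line 2), and leaving out the 2i library of double KO line 1 took it to 21.

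Trio (chr15:27730649-28025848), a guanine nucleotide exchange factor that guides axons, was higher in 2i and lower after exit in cells without Ehmt1. In 2i it had 11.7 and 8.0 CPM in Zic2 KO and 25.6 and 30.2 in the double KO (1.51 ± 0.3, adjusted p = 0.0022). At 32 h it had 148 and 139 in Zic2 KO and 39.9 and 43.4 in the double KO (-1.78 ± 0.28, adjusted p = 0.00046). The exit responses differed by -3.29 ± 0.41 (adjusted p = 0.0016). Without Zfp281 the order was alike: 45.3 and 47.6 CPM in 2i against 30.8 and 20.1 in WT (0.85 ± 0.16, adjusted p = 0.0091), then 69.0 and 76.6 against 153 and 122 at 16 h (-0.92 ± 0.12, adjusted p = 0.00098). The 2i call was lost without Zfp281 KO line 1 (0.92, adjusted p = 0.097) or line 2 (0.85, adjusted p = 0.14).

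Gabra3, a GABA receptor subunit, was at 1 and 2 counts in polyA WT in 2i and at 42 and 39 counts in Ehmt1 KO. In Zic2 KO it had 0 and 2 counts in 2i and 43 and 46 at 32 h, and in the double KO 93 and 33 counts in 2i and 43 and 40 at 32 h. So Ehmt1 KO libraries held in 2i about the counts that Zic2 KO reached at 32 h, and the double KO libraries in 2i differed from each other.

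Grb10 shows how a gene met the rule and then went uncalled. At 32 h it had 296 and 180 CPM in ribo-depleted WT and 103 and 110 in Zfp281 KO, and 157 and 169 in polyA WT and 42.3 and 60.3 in Ehmt1 KO. At 16 h it had 146 and 96.3 CPM in WT and 88.1 and 85.3 in Zfp281 KO, and in the double KO at 32 h 38.9 and 81.2 against 110 and 106 in Zic2 KO. The KO libraries lay below their controls both times, while the WT lines at 16 h and the double KO lines at 32 h were spread widely, and neither difference passed the test (-0.48 ± 0.2, adjusted p = 0.13, and -0.85 ± 0.37, adjusted p = 0.09).

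**Figure D5:**
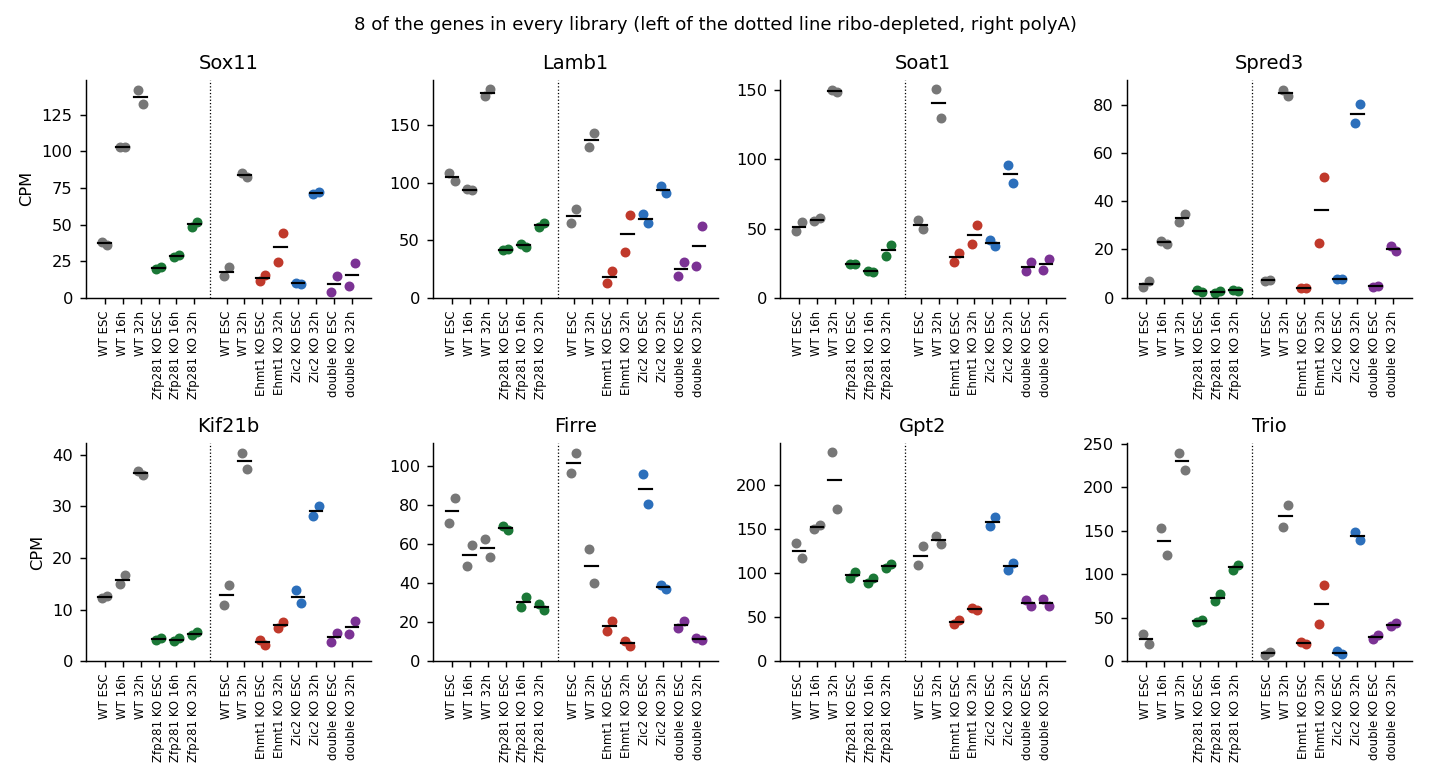
CPM of 8 genes (Sox11, Lamb1, Soat1, Spred3, Kif21b, Firre, Gpt2, Trio) in each library, 1 point a library and a bar at the group mean, with groups along the horizontal axis. Spred3 lies between 2.07 and 3.14 CPM in Zfp281 KO at all 3 stages while WT reaches 31.5 and 34.7 at 32 h, and Trio is higher in 2i and lower at 32 h in the double KO than in Zic2 KO. The 32 h libraries of WT, Zfp281 KO and Ehmt1 KO were used to choose the genes.

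Other lists give the setting of these values. The 2-cell-like genes, a list of the early embryo's transient program, had 8 of 8 tested members called higher in Ehmt1 KO in 2i, 4 of 10 in Zfp281 KO in 2i, 5 of 9 at 16 h and 4 of 8 in the double KO at 32 h, with none called lower. They summed to 2.91 to 18.9 CPM in the 10 WT libraries, 20.5 to 32.6 in Zic2 KO, 29.6 to 69.6 in Zfp281 KO, 37.6 to 59.2 in Ehmt1 KO and 41.8 to 98.6 in the double KO. Zscan4f and Gm4340 were at 0 in every library, near-identical copies make single members uncertain, and the part of these genes in the results was not tested. The H3K9 methylation genes had 5 of 17 called lower and 4 higher in Zfp281 KO at 16 h, and 1 in each direction in Ehmt1 KO in 2i. Lamb1 and Gata4 also stand on the list of primitive endoderm genes, of which 1 of 15 was called lower and 5 higher in Zfp281 KO at 16 h, and 2 of 17 lower and 4 higher in Ehmt1 KO in 2i. On that list 1 of 18 was called lower and 3 higher in Zfp281 KO in 2i, and 3 of 17 lower and 5 higher in the double KO at 32 h. The median exonic length of the 225 genes with a value was 4766 bases, against 4334 over the tested genes.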

How the data were processed

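RNA was counted per gene in 28 libraries. The authors deposited 2 tables of raw read counts by Entrez gene, 1 of them for the 16 h libraries, and build GRCm38 (mm10) and edgeR are named per the submitters' processing notes. The sources used here do not give the aligner, counter, annotation or strand setting, so overlapping and antisense genes (Miat, Firre) and near-identical copies (Hspa1b) are uncertain. Symbols were matched through the RefSeq gene table for 24061 of 24116 IDs.

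No test joined the 2 library kits: ribo-depleted libraries in 2i and at 32 h (18971 genes), those at 16 h (15139 genes) and polyA libraries (15667 genes) were fitted separately in edgeR 4.0.16 (R 4.3.3, limma 3.58.1), with filterByExpr (minimum count 10, minimum total 15), TMM scaling, a quasi-likelihood F test and Benjamini-Hochberg adjustment over all genes in a fit, so that the groups of a fit share 1 estimate of the spread. CPM per library, other than in the selection, uses the TMM-scaled library size. The SE is the log2 fold change over the root of F. The steps were tested on simulated data. Every column matched a sample by its name.

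The genes, lists and comparisons were chosen with earlier results of these data known. Any of the 226 could be named; full values went to those with the highest WT level at 32 h (a mean over both kits, used only to pick names), those on a list or those with the largest called changes, and Firre, Kif21b and the genes of the integrated stress response were added after their values were seen. For exits, the line was tried as a block, since the labels give the same lines at both stages. Across genes the deviations of a line in 2i and at 32 h correlated at 0.877 in ribo-depleted WT, 0.05 in Zfp281 KO, 0.047 in polyA WT, 0.462 in Ehmt1 KO, 0.179 in Zic2 KO and 0.53 in the double KO. Alternatives were DESeq2 1.42.0, its size factors, no filter, a block, only the groups compared, and leaving out each library.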

Additional observations from a re-analysis of the deposited data

Results flagged for a closer look

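The exit from 2i to 32 h differed between the double KO and Zic2 KO by an interaction term (edgeR, adjusted p under 0.05) in 13 genes with a lower and 1 with a higher response. Named among them on the log2 scale are Gabra3 (-6.1), 4833422M21Rik (-4.89), Trio (-3.29), Tubb4a (-2.96), Dchs1 (-2.33), Ncan (-2.28) and Cpeb1 (1.4). Gabra3 and 4833422M21Rik had 0 to 2 counts in Zic2 KO in 2i, so their fitted values rest on the prior count and give no fold. 4833422M21Rik had 1 and 1 counts there and 37 and 34 at 32 h, against 17 and 5 and then 18 and 9 in the double KO. The calls of Trio and Gabra3 held under each alternative run, and those of the other 5 were lost when at least 1 library was left out: adjusted p reached 0.11 for 4833422M21Rik (without the 2i library of Zic2 KO line 2), 0.13 for Tubb4a (the same library), 0.087 for Dchs1 (2i, Zic2 KO line 1), 0.14 for Ncan (2i, Zic2 KO line 2) and 0.14 for Cpeb1 (32 h, Zic2 KO line 1).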

How the results depend on the processing

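The number of genes meeting the rule was 351 with a pseudocount of 0.5 and 36 with a threshold of -1.5, and 196 to 257 when a 32 h library was left out. Leaving out a library gave 56 to 143 genes called lower in Zfp281 KO in 2i, 121 to 189 at 16 h, 109 to 112 in Ehmt1 KO in 2i, 135 to 177 in the double KO against Zic2 KO at 32 h and 76 to 106 in 2i. It gave 103 to 115 genes called higher in the exit of Zic2 KO, 37 to 84 in that of the double KO, and 3 to 21 for the lower exit response. With only the groups compared in the fit, 181 genes were called higher in the exit of Zic2 KO, 14 in that of the double KO, and 5 lower in Zic2 KO in 2i. The counts of lower genes were then 80 in Zfp281 KO in 2i and 131 in Ehmt1 KO in 2i. For the double KO against Zic2 KO they were 170 at 32 h and 78 in 2i. DESeq2 called 1 gene lower in Zic2 KO in 2i and 32 for the lower exit response. With the line as a block, 167 genes were called higher in the exit of Zic2 KO, 112 in that of the double KO, and 55 had a lower exit response. KO and WT share only a replicate number, and with that number as a block the counts of lower genes were 118 (Zfp281 KO in 2i), 174 (16 h), 143 (Ehmt1 KO in 2i), 184 (double KO at 32 h), 110 (double KO in 2i) and 0 (Zic2 KO in 2i). Without Zfp281_WT, added after seeing the data, 132 genes were called lower in Zfp281 KO in 2i. No call for the 69 genes examined singly reversed in 2840 alternatives, 364 of which lost the call. A planned motif share with 250 bases of promoter was not run, as too few of the genes have a window. With 2 libraries a group, differences in genes of few counts were often not detectable.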
